A study of Rattus norvegicus with 20 samples.

Results

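Rax, Dio2, Gpr50, Vim, Nes, Foxj1, Crym, Thra and Thrb are 9 genes of the tanycytes and ependyma that line the third ventricle beside the arcuate nucleus, and of the thyroid hormone signal that these cells handle. They were found as the non-control probes whose gene name in the array files is one of these symbols or an older one, which gave 11 of 30367 probes and 9 of 25926 gene names. Of the 9 genes, 8 passed the filter on dim probes and were tested among 17083 genes, and Thrb did not pass.

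The study asked how infantile spasms and their treatment change the transcriptome of the hypothalamic arcuate nucleus, here in 20 female Sprague-Dawley rats, 4 in each of 5 conditions. SNS rats had prenatal saline, no spasms and postnatal saline. BNS rats had prenatal betamethasone, a synthetic glucocorticoid given to the dams as 2 doses of 0.4 mg/kg on gestational day 15, with no spasms and postnatal saline. BYS, BYA and BYP rats also had prenatal betamethasone, had spasms triggered by N-methyl-D-aspartic acid (NMDA) on postnatal days 12, 13 and 15, and were treated with saline, ACTH or PMX53, an antagonist of the complement receptor C5ar1, per the labels from postnatal day 13 to 15. All nuclei were taken on postnatal day 15, and the sources used here do not say whether the 4 rats of a condition came from separate litters, so p-values measure the spread between these samples.

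Expression was read on 2-colour Agilent rat arrays, with 2 rats of a condition on each of 9 arrays. On 2 further arrays BYA replicates 3 and 4 each shared the array with a male rat of another series. Which of the 2 animals the BYA replicate 3 channel holds is not certain, because the raw data are named in an order of animals that its dye label contradicts. Levels are given as log2 normalized intensity, and a difference of 1 on this scale is a 2-fold change. In each array channel a spot is well above background when the extraction software marked it so. The 5 conditions lay on separate slides, with BYA on 2 of the 6, so slide and condition cannot be told apart. The median brightness of spots over their local background was 6.65-fold in SNS, 7.16-fold in BYA and 8.66-fold in BYP, and 15.1-fold in both BNS and BYS. All 12 arcuate neuron markers were measured and none was called by limma in any of the 10 comparisons (3 of 120 differences had an unadjusted p under 0.05, and 4 were called when rats on 1 array were taken as independent), and Pomc, which encodes the precursor of the melanocortins, ranged from 13.81 to 15.30. Of all genes, 29.8% to 34.3% had such a p in the 4 comparisons with SNS and 3.24% to 10.5% in the other 6. With rats taken as independent, 27.1% to 31.3% and 0% to 1.5% of all genes were called. Of 11 pituitary markers 7 did not pass the filter on dim probes, Prl and Gh1 among them.

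Tanycytes are radial glia-like cells of the ventricular floor and wall that carry nutrients and hormones between cerebrospinal fluid, blood and the arcuate neurons, while the ciliated ependymal cells beside them move the fluid. Tanycytes take up thyroxine and convert it with the deiodinase Dio2 to the active hormone T3, which acts through the nuclear receptors Thra and Thrb in neighbouring cells. Thyroid hormone is needed for the maturation of the postnatal brain, and glucocorticoids are known to act on the thyroid axis.

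The 9 genes differed in how firmly the arrays could read them. Vim, Nes, Foxj1, Crym and Thra were well above background in all 20 samples, and no spot of any of the 9 was saturated. The single Dio2 probe was well above background in 17 samples, missing 1 SNS and 2 BYA samples. The single Gpr50 probe was well above background in 14, with at most 3 of 4 samples in every condition other than BYS. Rax had 2 probes, well above background in 16 and 18 samples, which share a stretch of 49 bases that differs at 1 base, and whose levels correlated with r = 0.68 over the 20 samples. The 2 Nes probes correlated with r = 0.844. Both probes of a gene were averaged.

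The probes of Thra and Thrb are shown because these receptors are paralogs with similar sequence. They lie at chr10:87537328-87537387 on the plus strand for Thra and at chr15:9282955-9283014 on the minus strand for Thrb (build rn4, as the files give it). Aligned with each other without gaps over 38 bases, 25 are identical (65.8%), and these are in capitals below, written 5′ to 3′. The files list 2 transcripts for each of these probes, so isoforms of a receptor cannot be told apart.
Thra: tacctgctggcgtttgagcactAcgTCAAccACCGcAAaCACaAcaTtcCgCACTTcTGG
Thrb: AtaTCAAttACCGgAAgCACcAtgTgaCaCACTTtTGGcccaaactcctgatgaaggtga

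The probes of Dio2 and Gpr50 are shown because each of these genes rests on 1 probe that some samples left at background. The Dio2 probe lies at chr6:114308225-114308284 on the minus strand and the Gpr50 probe at chrX:157106051-157106110 on the plus strand (rn4). The files name the gene of each probe but not its exon, which is not given in the sources used here.
Dio2: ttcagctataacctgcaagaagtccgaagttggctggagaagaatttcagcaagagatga
Gpr50: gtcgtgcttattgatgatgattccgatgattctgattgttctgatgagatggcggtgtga

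None of the 8 tested genes passed the threshold in any comparison, neither among the 5 conditions together nor in the 10 pairs of conditions. The test was limma's, with dye as a covariate, array as a random block and Benjamini-Hochberg adjustment over all genes. The adjusted p of the F test over the 5 conditions lay between 0.342 (Vim) and 0.871 (Crym), while 12.1% of all genes passed that test. In the comparisons with SNS, 15.1% of all genes were called in BNS, 13.9% in BYS, 19.4% in BYA and 15.5% in BYP. Between BYS and BNS, BYA and BYS, and BYP and BYA 0% were called, in BYP against BYS and BYA against BNS 0.00585%, and in BYP against BNS 0.0878%. At an unadjusted p under 0.05, 4 of the 80 differences of the 8 genes passed (Dio2 in BNS, Gpr50 and Foxj1 in BYA, and Foxj1 in BYP), all against SNS, where 31.1% of all genes passed in BNS, 34.3% in BYA and 31.4% in BYP. Without the array block 3 of the 80 were called, 2 in BYA against SNS and 1 in BYP against SNS, where 31.3% and 28.9% of all genes then passed. With the methods' unequal-variance test 2 passed unadjusted (Nes in BYA against SNS and Vim in BYP against BYA) and 0 after adjustment. Unadjusted, that test passed 6069 of 17069 genes in BNS against SNS, and its shares in those 2 comparisons are not given here. The 95% confidence intervals, each for 1 difference under this processing, had extremes over the 80 of −1.11 and 1.07 on the log2 scale. These are ratios of 0.462 and 2.1. The intervals do not cover the choice of processing or differences between slides. With the scanner software's own processed signal, Dio2 in BNS differed from SNS by −1.15.

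**Figure D1:**
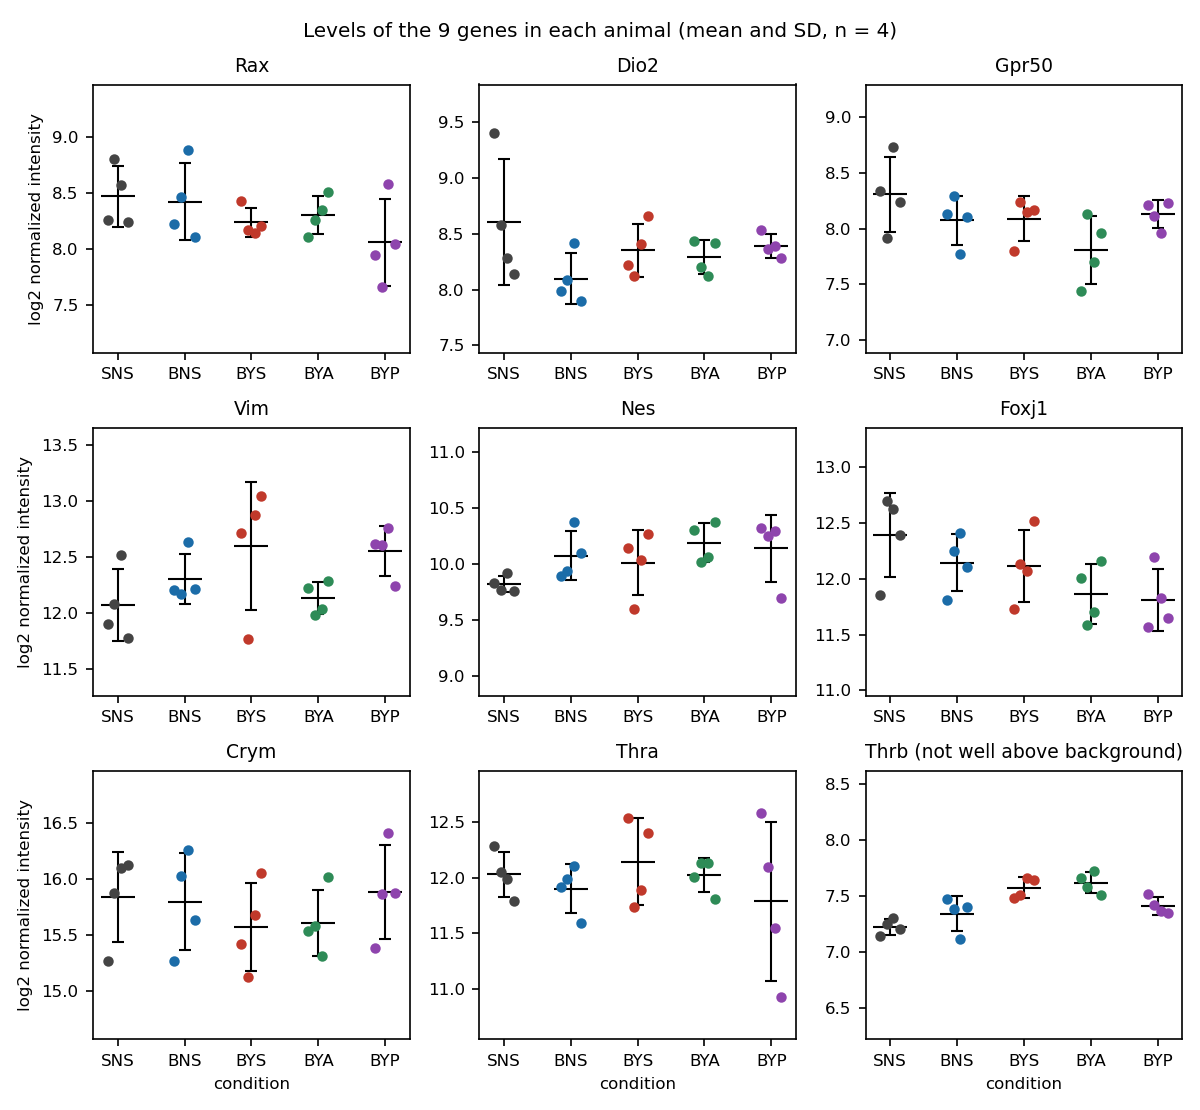
Level of each of the 9 genes (log2 normalized intensity, vertical axes of equal span) in each rat by condition, with the mean and SD of 4 rats. In the 8 tested genes the values of 2 conditions overlap in all but 1 of the 80 pairs (Nes in BYA and SNS), SNS replicate 1 stands at 9.40 for Dio2, and Thrb stays between 7.12 and 7.73, well above background in 3 samples.

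Rax, the homeobox factor that marks tanycytes, had its highest mean in SNS (8.47 ± 0.27, SD, n = 4), followed by BNS (8.42 ± 0.34), BYA (8.30 ± 0.17), BYS (8.24 ± 0.13) and BYP (8.06 ± 0.39). Neighbours in this order lay closer together than the SD of at least one of the pair. The ends of the order, BYP and SNS, differed by −0.41 (95% interval −0.92 to 0.09, adjusted p = 0.251), and the 2 probes gave −0.46 and −0.36. Elsewhere the same 2 probes differed in sign, with 0.04 and −0.14 in BNS against SNS and 0.07 and −0.37 in BYA against SNS.

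Dio2, which makes T3 from thyroxine, was 9.40, 8.58, 8.28 and 8.14 in the 4 SNS rats. In BNS it was 7.98, 8.08, 8.42 and 7.90. SNS replicate 1 was the highest of the 20 samples, the lowest SNS values fell within the BNS range, and the difference of BNS from SNS was −0.50 (95% interval −0.99 to −0.02, adjusted p = 0.148). Without SNS replicate 1 it was −0.27 (adjusted p = 0.299, from 0.00934 to 0.553 over the alternatives). The same sample had the highest Ttr, at 12.49 against 9.06 to 11.30 in the other 19, and the highest mean of the 6 measured choroid plexus markers, 9.88 against 9.16 to 9.76. It also had the highest mean of the 8 oligodendrocyte markers, 10.58 against 9.01 to 10.38, and of the 10 endothelial and mural cell markers, 9.98 against 9.51 to 9.93. Ttr encodes the thyroxine carrier made in choroid plexus, and of the 11 markers on that list Kl, Kcnj13, Clic6, Sostdc1 and Slc4a5 did not pass the filter on dim probes. The part of any of these cell types in the Dio2 level of that sample was not tested. In these bulk samples, fewer cells of a type and less RNA per cell cannot be told apart. From BYS, with a mean of 8.35 ± 0.24, Dio2 differed by −0.06 in BYA (95% interval −0.53 to 0.41) and by 0.04 in BYP (−0.45 to 0.53).

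Gpr50, an orphan receptor related to the melatonin receptors and abundant in tanycytes, was 8.34, 7.91, 8.73 and 8.24 in SNS. In BYA, the lowest condition, it was 7.44, 8.13, 7.70 and 7.96. The 2 ranges overlapped, and the difference was −0.49 (95% interval −0.94 to −0.05, adjusted p = 0.107). It passed the threshold without the array block (adjusted p = 0.0297) and without SNS replicate 2 (−0.65, adjusted p = 0.029), with a range of 0.00544 to 0.953 over the alternatives. The probe was well above background in 2 of 4 samples in each of these conditions.

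Vim and Nes encode vimentin and nestin, intermediate filament proteins of tanycytes, radial glia and reactive astrocytes. Vim was 12.71, 11.77, 12.87 and 13.05 in BYS. In SNS it was 11.91, 12.08, 12.52 and 11.78. BYS thus held both the highest and the lowest of the 20 values, and its mean exceeded that of SNS by 0.53 (95% interval −0.00 to 1.07, adjusted p = 0.17). Without BYS replicate 2 the difference was 0.76 and passed the threshold (adjusted p = 0.0252, from 0.00882 to 0.519 over the alternatives). BYP exceeded SNS by 0.49 (adjusted p = 0.198), and BYA lay below BYS by −0.46 (95% interval −0.98 to 0.05, adjusted p = 1).

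Nes was 9.84, 9.77, 9.92 and 9.76 in SNS, the narrowest group of any of the 8 tested genes. In BYA it was 10.31, 10.02, 10.06 and 10.38. The BYA and SNS values did not overlap, as in 26.6% of all genes in that comparison, and the difference was 0.37 (95% interval −0.00 to 0.75, adjusted p = 0.146). No other of the 80 differences separated its groups completely. The mean of the 11 astrocyte markers with a value in every sample lay between 11.29 and 11.65 in SNS and between 11.31 and 11.59 in BYA.

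Foxj1, the factor that drives the formation of motile cilia, was 11.86, 12.70, 12.62 and 12.39 in SNS. In BYP it was 11.57, 12.19, 11.83 and 11.65. In BYA it was 12.01, 11.59, 11.70 and 12.16. Of the 4 SNS rats 3 lay above every BYP and BYA value, and SNS replicate 1 lay within both ranges. From high to low, the order of the means was SNS (12.39 ± 0.38), BNS (12.14 ± 0.25), BYS (12.11 ± 0.32), BYA (11.86 ± 0.27) and BYP (11.81 ± 0.28), with neighbours closer than their SDs. BYP differed from SNS by −0.58 (95% interval −1.11 to −0.05, adjusted p = 0.127) and BYA by −0.52 (−1.03 to −0.00, adjusted p = 0.142). Both passed the threshold without the array block (adjusted p = 0.0288 and 0.0416) and without SNS replicate 1 (−0.74 and −0.68, adjusted p = 0.0399 and 0.0454), with ranges of 0.00271 to 0.598 and 0.00877 to 0.934 over the alternatives.

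**Figure D2:**
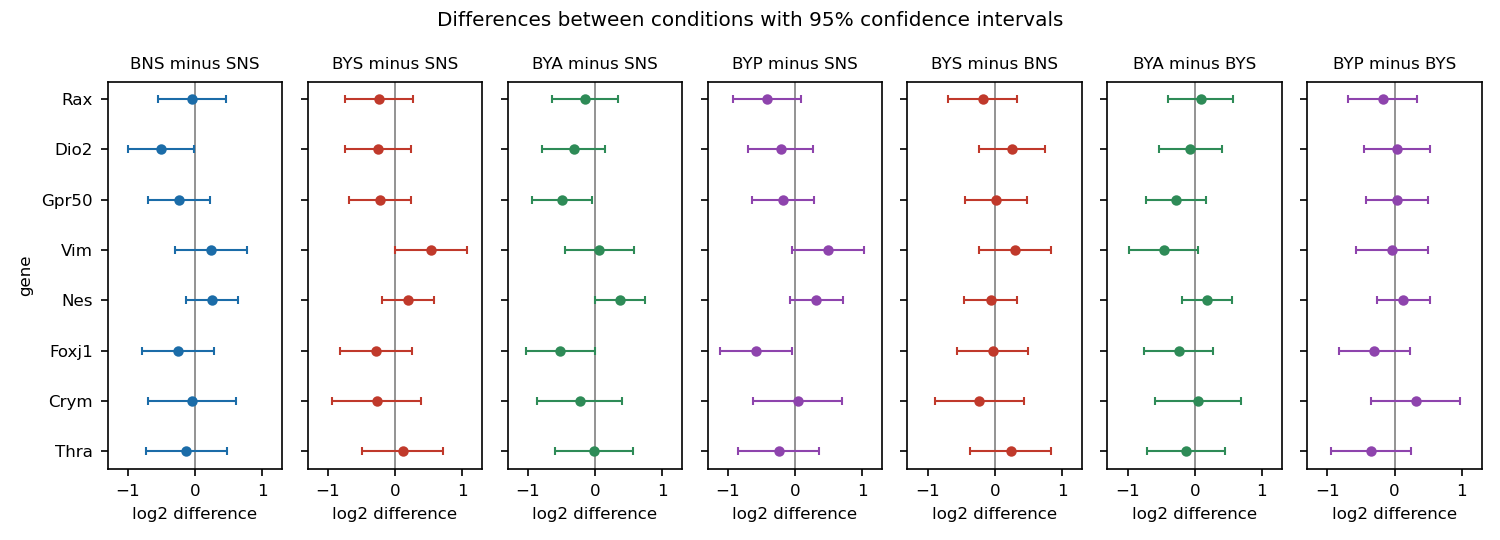
Difference in log2 level with its 95% confidence interval for the 8 tested genes (rows) in 7 comparisons (panels). Intervals that leave out 0 belong to Dio2 in BNS minus SNS, Gpr50 and Foxj1 in BYA minus SNS and Foxj1 in BYP minus SNS, and no interval leaves out 0 in the 3 panels that set spasms against none or a treatment against saline.

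Crym, a protein of the cytosol that binds T3, had means from 15.57 ± 0.39 in BYS to 15.88 ± 0.42 in BYP. Its values ranged over 1.28, from 15.13 to 16.41, and each condition held rats from both ends of that range. The within-condition SD of 0.39 was higher than that of 93.5% of all genes. BYP exceeded BYS by 0.31 (95% interval −0.35 to 0.97, adjusted p = 1).

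Thra, the receptor for T3 that is widespread in neurons, had means from 11.79 ± 0.71 in BYP to 12.14 ± 0.39 in BYS. The 4 BYP values were 12.58, 12.09, 11.55 and 10.93, so that BYP held the highest and the lowest of the 20. No interval of Thra left out 0.

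Thrb, the second T3 receptor, was well above background in 3 of 4 BYS samples and in no sample of the other conditions. It was 7.48, 7.51, 7.67 and 7.65 in BYS and 7.14, 7.25, 7.30 and 7.20 in SNS, where only an upper bound was measured. In a limma fit of all genes with no filter, BYS lay above SNS by 0.35 (adjusted p = 0.0381). In that fit BYA lay above SNS by 0.40 (adjusted p = 0.0131), with no sample well above background. The same fit called 2664 of 25923 genes in BNS against SNS. These differences lie between levels near background on separate slides and are not read as a change in Thrb. They are not read as a fold either, since 1 of the 4 BYS values is itself not well above background. The BYA mean of 7.62 was also above the BYS mean of 7.58.

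The genes did not vary as 1 block across the 20 samples. With the dye effect removed, Pearson r over the 28 pairs ran from −0.44 to 0.618 with a median of 0.0881, and the highest was that of Vim and Nes (Spearman rho = 0.644, within-condition r = 0.804). Rax and Crym had r = 0.486, Foxj1 and Crym 0.511. Crym followed the mean of the 16 other tanycyte markers that were measured in all samples (r = 0.832, rho = 0.83, r = 0.766 without the 2 samples farthest from the median, within-condition r = 0.865). It followed the mean of 11 arcuate neuron markers (r = 0.827, within-condition r = 0.874) and of the 18 ciliated ependyma markers (r = 0.787, within-condition r = 0.901) about as closely. Foxj1 followed the mean of the 18 other ciliated ependyma markers in the same way (r = 0.828, rho = 0.814, r = 0.778 without the 2 farthest samples, within-condition r = 0.835), with r of 0.549 for the arcuate neuron and 0.483 for the tanycyte markers. For the other tanycyte genes, r with the tanycyte markers was 0.553 for Vim, 0.46 for Rax, 0.438 for Nes, 0.211 for Gpr50 and 0.16 for Dio2. Rax, Nes and Dio2 had a higher r with other lists. It was 0.691 with the ciliated ependyma and 0.559 with the arcuate neuron markers for Rax. For Nes it was 0.567 with 3 pituitary and 0.485 with the arcuate neuron markers, and for Dio2 it was highest with the astrocyte markers (0.512). These are descriptions over 20 samples, 18 of which share an array with another, and no test was made.

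**Figure D3:**
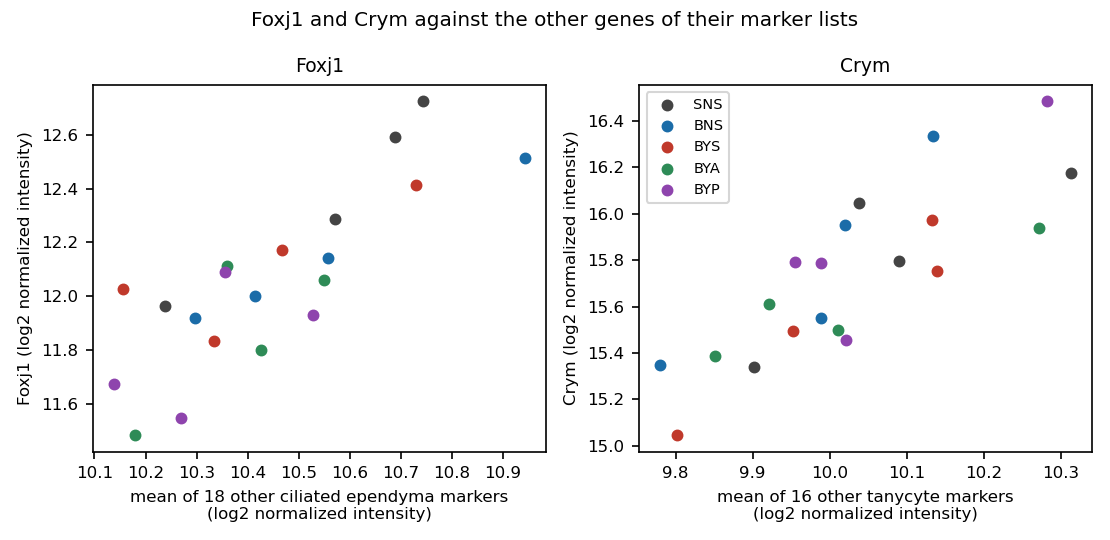
Level of Foxj1 against the mean of 18 other ciliated ependyma markers (left) and of Crym against the mean of 16 other tanycyte markers (right), in log2 normalized intensity with the dye effect removed, 1 point per rat coloured by condition. Both rise together across the 20 rats (r = 0.828 and 0.832), and the conditions overlap along both axes.

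Of all genes measured, the pair most like each of the 8 in its pattern over the 20 samples (Pearson r, dye effect removed) was Slc44a4 (0.902) and Spef2 (0.874), itself a cilium gene, for Foxj1. For Crym it was Noxa1 (0.86) and Cited1 (0.847), for Vim Pdlim4 (0.818) and Hspb1 (0.812), for Thra Pacsin1 (0.905) and Fam234b (0.857), for Dio2 AY387058 (0.945) and Rock2 (0.931), and for Gpr50 Ube2ql1 (0.839) and RGD1309995 (0.835). Rax was followed by Klhdc8b (0.856) and Nes by XM_219543 (0.882), with the second of each pair known by probe name alone.

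Of 23 tested tanycyte markers, BNS had 2 lower than SNS, BYS 1 higher and 1 lower, BYA 1 higher and BYP 2 higher and 1 lower (2, 2, 1 and 3 of 23, or 8.7%, 8.7%, 4.35% and 13%, beside 15.1%, 13.9%, 19.4% and 15.5% of all genes), with medians of −0.05, −0.15, −0.04 and 0.04 beside −0.04, −0.03, −0.04 and −0.04 over all genes. Those described here were Col23a1, a collagen of tanycytes (−0.45 in BNS), Tgfb2, a growth factor (0.41 to 0.47 in BYS, BYA and BYP), and Sox2, a factor of neural progenitors (0.54 in BYP). Of the 3 Tgfb2 probes 2 were kept, and its calls rest on 1 of them, which gave 0.92 in BYA and 0.75 in BYP (adjusted p = 0.00361 and 0.0203) where the other gave 0.02 and 0.18 (adjusted p = 0.916 and 0.332). In the same limma fit of single probes, the 2 Col23a1 probes gave −0.59 and −0.31 in BNS (adjusted p = 0.023 and 0.274). The 2 Sox2 probes gave 0.66 and 0.41 in BYP (adjusted p = 0.0334 and 0.203). The Col23a1 call was lost under 18 alternatives and the Sox2 call under 13. Of 19 tested ciliated ependyma markers, BNS and BYS had 1 higher each, BYA 2 lower and BYP 1 higher and 2 lower (5.26%, 5.26%, 10.5% and 15.8%). Without the array block, 4, 2, 5 and 10 of the 19 were called, where 28.6%, 27.1%, 31.3% and 28.9% of all genes passed. Their median differences from SNS were −0.14, −0.22, −0.22 and −0.42, and 5 of the 19 were higher than in SNS in BYP by the fitted value. Mlf1 fell in BYA (−0.74) and BYP (−0.72), the tektin Tekt1 in BYA (−0.56) and the cilium gene Cfap52 in BYP (−0.71), while Rarres2, which encodes chemerin and is also made by tanycytes, rose in BNS (0.98), BYS (0.71) and BYP (0.78). The Tekt1 call was lost under 21 alternatives, and its difference shrank to −0.06 in 1 of them. The Mlf1 calls were lost under 6 in BYA and 14 in BYP, and the Cfap52 call under 4. Those of Rarres2 were lost under 1 in BNS, 17 in BYS and 9 in BYP. No gene of either list was called by limma in the 6 comparisons that left out SNS, where 3 of 138 tanycyte and 6 of 114 ependyma differences had an unadjusted p under 0.05, and where 0 and 1 were called without the array block. The shares of all genes in these 6 comparisons were 3.24% to 10.5% at that p and 0% to 1.5% called without the block.

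Of 34 tested genes of thyroid hormone transport, deiodination, receptors, axis peptides and responsive brain genes other than the 9, those called against SNS were 2 higher and 2 lower in BNS, 4 and 2 in BYS, 6 and 2 in BYA, and 5 and 3 in BYP, which is 4, 6, 8 and 8 of 34 beside 15.1%, 13.9%, 19.4% and 15.5% of all genes. None was called by limma in the 6 comparisons that left out SNS, where 21 of 204 differences had an unadjusted p under 0.05 and 2 were called without the array block. Of all genes, 3.24% to 10.5% had such a p in these comparisons, and 0% to 1.5% were called without the block. The amino acid and thyroid hormone carrier Slc7a8 rose in BYS (0.81) and BYA (0.74). The organic anion transporter Slco1c1, which carries thyroxine into brain, was lower than SNS by −0.29 to −0.36 in the 4 other conditions, and the T3-inactivating deiodinase Dio3 was higher by 0.14 to 0.41, neither passing the test.

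Among the partners of the receptors, the retinoid receptor Rxrb was 10.30, 10.17, 10.27 and 9.99 in SNS and at least 10.59 in every other sample. It rose in BNS (0.68), BYS (0.81), BYA (0.83) and BYP (0.68), with adjusted p from 0.000635 to 0.00512. Groups did not overlap in 32.5%, 27.2%, 26.6% and 26.6% of all genes in these single comparisons with SNS. The share of all genes apart from SNS in all 4 at once is not given here. Med1, the mediator subunit that nuclear receptors contact, rose in the same 4 conditions, by 0.60, 0.68, 0.73 and 0.96. Rxrg fell in BYA (−0.65) and BYP (−0.86). Trhde, the peptidase that tanycytes release to degrade thyrotropin-releasing hormone, fell in all 4 conditions, by −0.44 in BNS, −0.47 in BYS, −0.67 in BYA and −0.57 in BYP. Its limma adjusted p was 0.0425, 0.0316, 0.00217 and 0.0109 in these. The Trhde calls were lost under 15 alternatives in BNS, 9 in BYS, 4 in BYA and 4 in BYP. Of the hormone-responsive genes, Reln, which guides neuronal migration, rose in BYS (0.82), BYA (0.83) and BYP (0.89). Klf9, a factor induced by T3 and by glucocorticoids, was 11.10, 10.79 and 10.71 in the 3 SNS rats with a value, and 12.05, 11.97, 11.80 and 12.06 in BYA. It rose by 1.15 in BYA and by 1.36 in BYP. BYA exceeded BYS by 0.52 and BYP exceeded BYS by 0.73, with adjusted p of 1 and 0.929.

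**Figure D4:**
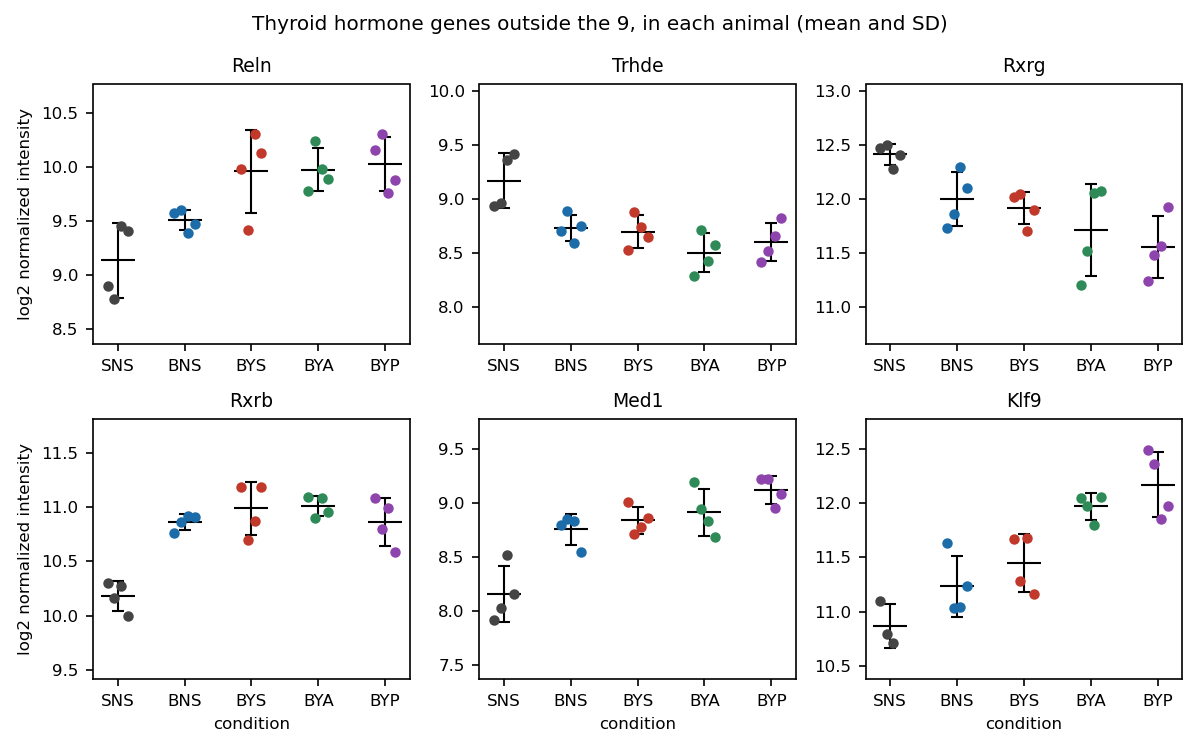
Level of 6 thyroid hormone genes outside the 9 (log2 normalized intensity, vertical axes of equal span) in each rat by condition, with the mean and SD. The SNS rats lie below every other rat for Rxrb and Med1, and Klf9 has 3 SNS values. In single comparisons with SNS, groups did not overlap in 26.6% to 32.5% of all genes.

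All these calls set SNS against another slide, and their number, like that over all genes, depends on the scaling of the arrays: when all channels were only brought to 1 common median, 0 of the 34 thyroid hormone genes were called in any comparison with SNS, where 0.111% of all genes passed in BNS, 0.539% in BYS, 1.15% in BYA and 0.0176% in BYP, and the median over all genes in BNS against SNS moved to −0.14. No fitted direction of a called gene turned under any setting. With the scanner software's own processed signal, 0, 0, 0 and 2 of the 34 were called in BNS, BYS, BYA and BYP, beside 6.35%, 6.42%, 5.71% and 7.67% of all genes. With that signal the differences from SNS in BYA shrank to −0.08 for Gpr50, 0.02 for Nes and −0.06 for Foxj1, that of Foxj1 in BYP was −0.26, and that of Dio2 in BNS was larger, at −1.15 (adjusted p from 0.273 to 0.972 in these 5).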

How the data were processed

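The 9 genes and the lists of other genes were chosen with earlier results of these data known. Each array came as 1 deposited file, in the form its extraction software gave. Per the file headers, mean spot signals, median local backgrounds and processed signals are intensities, the last background-subtracted and dye-normalized by the software. Deposited spot flags, which are 0 or 1, were also used. The headers name extraction software version 11.5.1.1, and the submitters' processing notes name Agilent Feature Extraction 10.7.3.1. The 82 columns of the other series on 2 arrays were not used.

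For each channel, normexp (limma, offset 50) removed the background, and quantile normalization then put the log2 values of 42877 non-control spots on 1 scale over all 20 channels. Outlier spots (1.18%) were left out, and probes were kept when all 4 samples of some condition had a share of 0.5 or more of their spots well above background. Accessions of 18643 probes (61.4%) matched RefSeq symbols. Comparisons were made in 1 limma fit of all channels with dye as covariate and array as a random block (consensus correlation 0.365), with Benjamini-Hochberg adjustment over 17083 genes at 0.05. The number of arrays limits the precision. Same-numbered replicates of different conditions did not deviate together (mean correlation 0.0031, from −0.239 to 0.28), so no pairing was used.

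From the lists, genes called in a comparison were named, at most the 5 largest per list and comparison, and for each gene the 2 with the most similar pattern. Some genes of the lists that entered their counts are not reported here. Slco1c1, Dio3, Ttr and Pomc were chosen after their values were seen. The scripts were tested on simulated data. The methods' unequal-variance test, other normalizations, filters, blocks and leaving out each sample were tried as alternatives. The software was R 4.3.3 with limma 3.58.1 and statmod 1.5.0.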

Additional observations from a re-analysis of the deposited data

Results flagged for a closer look

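In groups of 4 samples, a highest or lowest value was looked at again where its gap to the nearest sample, divided by the range of the group, exceeded Dixon's 95% critical value. Of the 45 groups of 4 values (9 genes in 5 conditions), 2 met this rule, and chance meets it in about 1 group in 20. For Vim, BNS replicate 3 stood at 12.64 with the other BNS rats between 12.17 and 12.21, a gap of 0.899 of the range. For Nes, BYP replicate 4 stood at 9.70 with the other BYP rats between 10.25 and 10.33, a gap of 0.882 of the range. Leaving out either sample led to no call of Vim or Nes in any of the 10 comparisons.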

How the results depend on the processing

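None of the 8 tested genes was called in BYS against BNS, BYA against BYS, BYP against BYS, BYA against BNS or BYP against BNS under any of the 34 alternatives. Slide as a random block, where only BYA spans 2 slides and the estimated correlation was negative (−0.128), called 1 gene in BNS, 1 in BYS, 3 in BYA and 4 in BYP against SNS and 3 among the 5 conditions. That setting called 8142 of all 17083 genes in BNS against SNS. Its shares of all genes elsewhere are not given here, so its counts are not read as a result about the 8 genes. Without the array block 2 genes were called in BYA and 1 in BYP against SNS, beside 31.3% and 28.9% of all genes. With no filter 1 was called in BYS and 1 in BYA against SNS, both of them Thrb, whose levels lay near background. That setting called 2664 of 25923 genes in BNS against SNS. The methods' test, unadjusted, passed 1 gene in BYA against SNS and 1 in BYP against BYA, and it passed 6069 of 17069 genes in BNS against SNS. Leaving out 1 sample at a time gave 0 to 1 in BYS, BYA and BYP against SNS and 0 elsewhere. The calls were Vim in BYS without BYS replicate 2, Gpr50 in BYA without SNS replicate 2, and Foxj1 in BYA and BYP without SNS replicate 1. In BNS against SNS these settings, in that order, called 2525 of 17083, 2390 of 17081 and 2158 of 17079 genes. Their shares of all genes in BYS, BYA and BYP against SNS are not given here. The replicate block (replicate number as a fixed term) called 0 of the 8 genes in every comparison and changed 1 of 80 signs, and no pairing across conditions is known.

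The 4 differences at an unadjusted p under 0.05 kept their sign under every alternative. With the processed signal, 11 of 80 differences of the 8 genes changed sign and the largest shift was 1.00; median scaling changed 22 and cyclic loess 7. The thyroid hormone genes called against SNS ranged, over alternatives other than leaving out a sample, from 0 to 22 in BNS (4 in the test used), 0 to 18 in BYS (6), 0 to 16 in BYA (8) and 0 to 19 in BYP (8), of 34. Over these alternatives the calls among all genes in BNS against SNS also ranged widely. They ran from 19 of 17083 with median scaling to 8142 of 17083 with slide as a random block. Among 1274 recomputed differences of the called list genes, 1030 stayed past the threshold, 244 did not and 0 changed sign. Both arrays shared with the other series were also left out, an alternative chosen after seeing the data, with 0 of the 8 genes called. Dim signal limits Dio2, Gpr50, Rax and Thrb, whose levels lie near background in some samples.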
